A study of Mus musculus with 4 samples.

Results

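The semaphorins, plexins, Slits, Robos, netrins, Unc5 receptors, ephrins and Eph receptors are the guidance genes, ligands and receptors first known for steering growing axons. They were collected here by gene symbol: every probe whose accession RefSeq assigns to a symbol beginning with Sema, Plxn, Robo, Slit, Unc5, Ntn, Epha, Ephb, Efna or Efnb was a member, with a digit required after Slit and Ntn. This gave 99 probes of 66 genes, out of 41174 probes and 18353 named genes on the array. The symbol rule also took in Unc50 and Unc5cl, which share the letters but are not netrin receptors. Each gene is summarised by its brightest probe, the one with the highest mean over the 4 arrays.

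RNA came from endothelial cells, the lining cells of vessels and heart chambers, isolated from adult mouse hearts. The control group, 2 samples, is wild type by its labels, and the G2-EC-KO group, 2 samples, carries a knock out of Gata2, a transcription factor of blood and endothelial cells. Each sample was hybridised to 1 single-colour Agilent array. The age of the mice, the Cre line or allele behind the knock out and any pooling of animals are not given in the sources used here. The labels do not say that the replicates are separate mice, so the p-values speak only of the variation among these 4 arrays, part of which may be technical.

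Guidance receptors turn the binding of a ligand on a neighbouring cell, or of a secreted ligand, into local changes of the actin skeleton and of adhesion. Semaphorins bind plexins, most of the secreted class 3 members through neuropilins. Slits bind Robo1 and Robo2, and netrins bind Dcc, neogenin and the Unc5 receptors. Ephrins bind Eph receptor kinases on touching cells, with signals running both ways. In vessels these pairs act in sprouting, branching and the separation of arteries from veins, where ephrin-B2 marks arteries and EphB4 marks veins.

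All 14 endothelial markers listed for the check, such as Pecam1 and Cdh5, were well above background on all 4 arrays. Their summed signal, in multiples of the 75th percentile of the array, was 642 and 699 in control and 666 and 678 in G2-EC-KO. Markers of other cells were also present. Of macrophage and monocyte markers 12 of 12 tested were higher in G2-EC-KO, with summed signals of 11.1 and 15.9 in control and 16.6 and 14.6 in G2-EC-KO. Among them Ccr2 was well above background only on the G2-EC-KO arrays and was tested through them alone, so its direction adds nothing. The other 11 were well above background on all 4 arrays. Of fibroblast markers 9 of 10 were higher, with 87.6 and 113 in control against 116 and 117. Cardiomyocyte markers were higher in 12 of 12 (94.8 and 95.8 against 101 and 135), and pericyte and smooth muscle markers in 2 of 10 (347 and 312 against 357 and 256). Platelet and blood markers were higher in 6 of 6 (89.0 and 79.3 against 154 and 83.4), lymphatic markers in 2 of 6 and lymphocyte markers in 2 of 9. For scale, 7980 of all 13629 named genes tested were higher in G2-EC-KO. Cd3g and Upk1b were not well above background on any array. Gata2 itself had log2 changes of 0.30 (SE 0.176) and 0.17 (SE 0.14) at its 2 probes (limma, adjusted p = 0.585 and 0.651). Whether these probes lie in the deleted part is not known, so they check nothing, and every direction below rests on the labels. In bulk RNA, fewer cells of a type and less RNA per cell cannot be told apart.

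Most guidance genes were detected. Of the 66 genes 54 were well above background on all 4 arrays at their brightest probe, and Robo2 was on 3. These 55 genes, with 77 probes, passed the filter for testing, a signal well above background on at least 2 arrays. Epha3, Epha5, Epha6, Epha8, Epha10, Ntn5 and Unc5d were not well above background on any array, and Efna2, Sema4b, Unc5c and Unc5cl were on 1. The share of members tested, 83.3%, compares with 74.3% of all named genes. Every semaphorin except Sema4b and every plexin, Slit and Robo was among the tested genes, whereas 5 of 14 Eph receptors, all of the EphA kind, were dark.

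No guidance gene passed an adjusted p of 0.05 between G2-EC-KO and control (limma, 0 of 55). Over the whole array 1 of 26900 probes passed, 0.00372%. At an unadjusted p under 0.05 there were 7 guidance genes, 12.7%, against 9.61% of all probes and 8.20% of named genes at 1 probe each. Of all probes 4.96% were higher and 4.65% lower at that threshold. Of the 7 guidance genes, Plxnc1, Slit2, Epha7 and Sema4a were higher in G2-EC-KO (7.27% of members, against 6.20% of named genes), and Sema4c, Robo2 and Sema3f were lower (5.45%, against 2.0%). The count was 1 without control replicate 2 and 11 without G2-EC-KO replicate 1, where the shares of all probes were 5.37% and 20.9%. With shares this near the background the count of 7 is no result about the family, and the genes are described as values.

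Across the tested members, 23 had a positive and 32 a negative log2 change, G2-EC-KO minus control, with a median of -0.055 and a range of -0.94 to 0.57. Lower signals thus made up 58.2% of members, against 49.9% of all probes, whose median was 0, and 41.4% of named genes, whose median was 0.043. The groups did not overlap at 24 members, 43.6%, against 47.2% of named genes and 46.4% of all probes. At 15 of these the G2-EC-KO arrays were the lower ones, 27.3% against 22.3% of all probes and 16.4% of named genes, of which 30.8% were higher without overlap. The median of the members was -0.00033 with normexp background correction, which here started from the median spot signal in place of the processed signal and added an offset of 50, and where 28 were lower and 27 higher, and stayed below 0 in all alternatives. The differences in share were not tested.

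**Figure D1:**
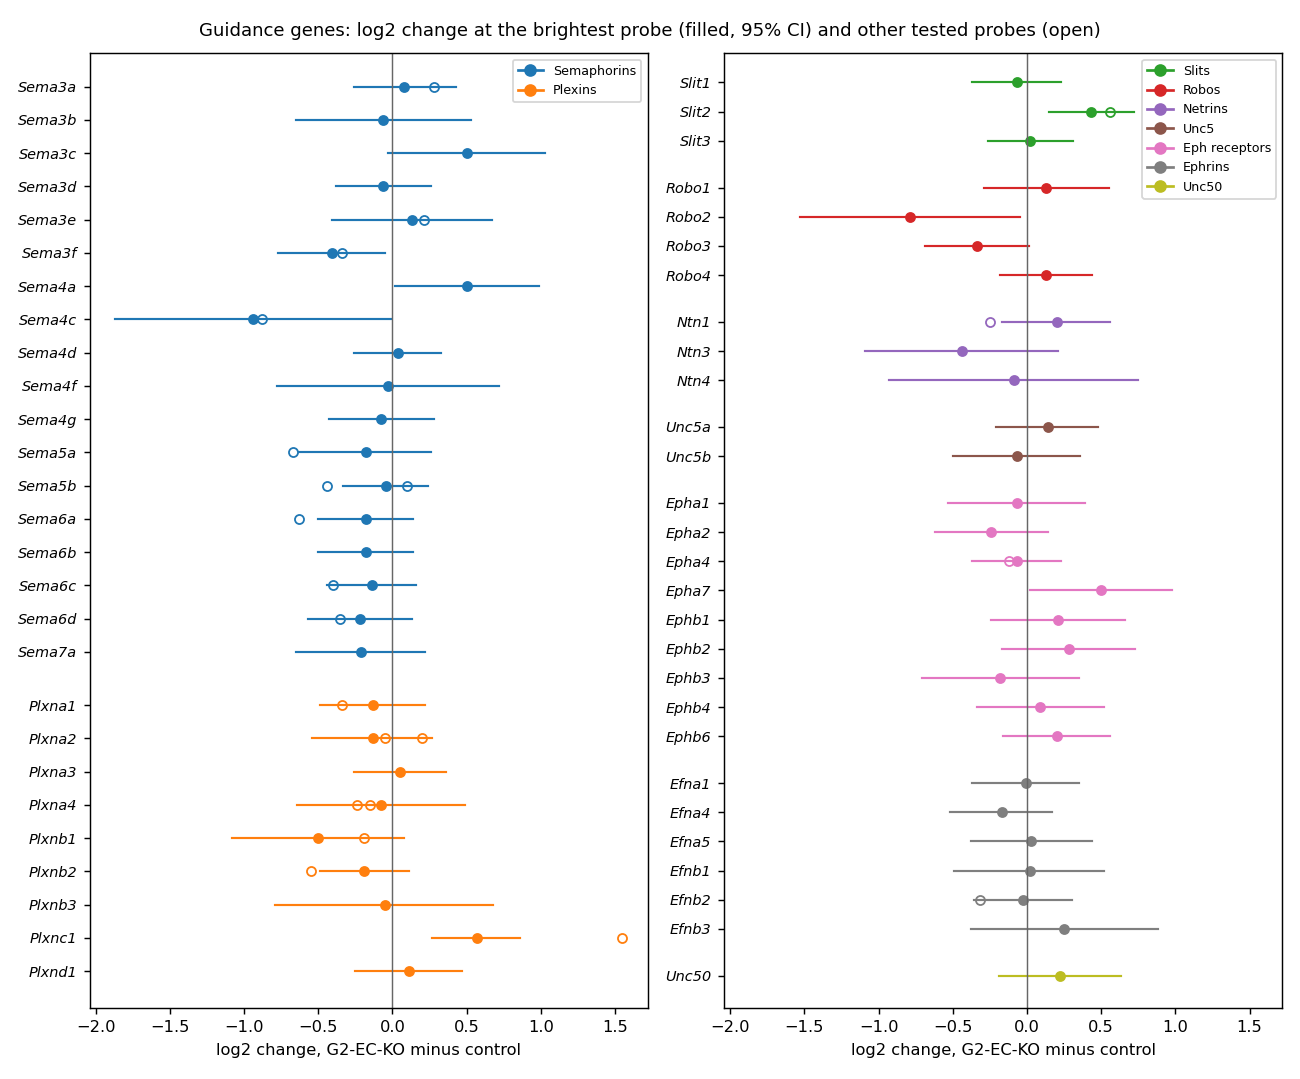
Log2 change (G2-EC-KO minus control, horizontal axis) of the 55 tested guidance genes, grouped by family. Filled points with lines are the brightest probe with its 95% confidence interval from limma, and open points are other tested probes of the same gene. Most intervals cross 0. Both probes of Slit2 lie to the right of 0, and both of Sema3f and Sema4c to the left. The open point of Plxnc1 is a probe that passed the filter only through the G2-EC-KO arrays.

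Upstream sequences are shown for Slit2, Plxnc1 and Sema4c, which are among the members with an unadjusted p under 0.05, and for 3 members that hold a GATA motif, since the factor deleted by the label binds such motifs. The 250 bases before the transcription start were taken from RefSeq promoters of build GRCm38.p6, which held 57 of the 66 genes in 72 windows, some genes having several starts. Capitals mark a match to one of 4 motifs on either strand, AGATAA with AGATAG and also TGATAA with TGATAG, and each line runs 5′ to 3′ on the strand of the gene. Slit2 lies at chr5:47982905-47983154 (plus strand), Plxnc1 at chr10:94944846-94945095 (minus strand) and Sema4c at chr1:36558382-36558631 (minus strand), and none of the 3 windows has a match. Unc5b lies at chr10:60831582-60831831 (minus strand), Sema6d at chr2:124653331-124653580 (plus strand) and the Robo2 start printed at chr16:75092771-75093020 (minus strand), with 1 match each, beginning 157, 111 and 186 bases before the start.
Slit2: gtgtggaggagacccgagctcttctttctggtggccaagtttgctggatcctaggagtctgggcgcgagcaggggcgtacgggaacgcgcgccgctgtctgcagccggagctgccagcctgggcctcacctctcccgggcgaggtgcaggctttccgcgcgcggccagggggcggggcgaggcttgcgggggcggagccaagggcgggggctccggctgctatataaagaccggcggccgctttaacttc
Plxnc1: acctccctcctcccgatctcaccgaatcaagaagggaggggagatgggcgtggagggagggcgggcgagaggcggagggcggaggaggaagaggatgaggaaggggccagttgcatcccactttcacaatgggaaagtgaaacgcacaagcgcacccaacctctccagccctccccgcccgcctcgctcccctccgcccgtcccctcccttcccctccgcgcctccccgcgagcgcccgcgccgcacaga
Sema4c: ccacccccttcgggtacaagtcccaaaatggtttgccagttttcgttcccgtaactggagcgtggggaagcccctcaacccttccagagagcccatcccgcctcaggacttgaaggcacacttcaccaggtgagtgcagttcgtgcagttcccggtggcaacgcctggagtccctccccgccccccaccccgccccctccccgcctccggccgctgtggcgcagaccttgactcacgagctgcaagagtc
Unc5b: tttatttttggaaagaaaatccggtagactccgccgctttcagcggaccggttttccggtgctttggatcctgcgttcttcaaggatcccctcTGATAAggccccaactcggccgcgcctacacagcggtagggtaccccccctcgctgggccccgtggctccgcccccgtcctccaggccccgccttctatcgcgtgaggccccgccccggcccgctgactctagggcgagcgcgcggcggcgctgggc
Sema6d: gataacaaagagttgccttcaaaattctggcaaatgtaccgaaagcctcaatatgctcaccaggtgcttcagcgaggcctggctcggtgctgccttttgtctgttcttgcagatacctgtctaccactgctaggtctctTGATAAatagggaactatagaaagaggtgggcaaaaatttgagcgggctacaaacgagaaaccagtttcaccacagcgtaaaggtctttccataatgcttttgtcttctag
Robo2: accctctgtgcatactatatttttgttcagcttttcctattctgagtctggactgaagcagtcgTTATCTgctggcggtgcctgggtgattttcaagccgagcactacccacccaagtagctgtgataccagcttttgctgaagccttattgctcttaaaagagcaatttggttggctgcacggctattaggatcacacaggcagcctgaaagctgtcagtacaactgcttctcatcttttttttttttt

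A match was found in 9 of the 72 guidance windows, 12.5%, and in 26.5% of all 32851 windows of the table. The guidance windows are rich in G and C, with a median share of 64.4% against 52.4% for all windows. Among all windows at or above 64.4% a match was found in 5.52%. Those windows had a median of 70%, while guidance windows lie on both sides of 64.4%, with Sema6d at 45.2% and Robo2 at 44.8%. The shares of 12.5% and 5.52% are therefore not at like G and C and cannot be compared. The genes with a match were Plxna2, Sema6d, Efna4, Sema3a, Unc5b, Sema4d, Epha3, Robo2 and Plxnb3. Of the 7 genes at an unadjusted p under 0.05, Robo2 alone had a match, at 1 of its starts, while Sema3f had no window in the table. A match describes letters in the window and is not evidence of binding.

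Of 18 tested semaphorins, 5 had a positive and 13 a negative log2 change. Sema4c, a membrane semaphorin that binds plexin-B2, had the lowest value of all members. Its brightest probe A_51_P170651 read 3.75 and 3.76 on control replicates 1 and 2 and 3.33 and 2.31 on G2-EC-KO replicates 1 and 2, where 0 is the 75th percentile of an array and all readings are log2. The groups thus differed by -0.94 (SE 0.352, with a 95% confidence interval of -1.87 to -0.01), at an adjusted p of 0.519 in limma. Its other probe read 1.88 and 2.02 in control and 1.56 and 0.59 in G2-EC-KO, a log2 change of -0.88 (SE 0.34). Both probes thus gave G2-EC-KO replicate 2 as the lowest array by a wide gap, and without it the log2 change of the brightest probe was -0.43, against -1.45 without G2-EC-KO replicate 1. Pericyte and smooth muscle markers, 8 of 10 lower and 2 higher, also had their lowest summed signal on that array (256, against 357 on G2-EC-KO replicate 1). Their part in the Sema4c value was not tested.

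Sema3f, a secreted semaphorin that signals through neuropilin-2 and repels endothelial cells, read 1.38 and 1.51 in control and 1.15 and 0.92 in G2-EC-KO at probe A_51_P389814. The difference of -0.41 (SE 0.136, interval -0.77 to -0.05) had an adjusted p of 0.50 in limma and made a signal 0.754 times that of control. The other probe read 0.54 and 0.58 in control and 0.29 and 0.14 in G2-EC-KO, with a log2 change of -0.34 (SE 0.116). The control arrays were the higher ones at both probes, with no overlap.

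Sema4a, a membrane semaphorin best known from immune cells, went the other way. It read 0.43 and -0.02 in control and 0.76 and 0.66 in G2-EC-KO at probe A_51_P195066, and the groups in limma differed by 0.50 on the log2 scale (SE 0.183, adjusted p of 0.513). Most of the spread lay between the control arrays, and the value was 0.28 without control replicate 2 and 0.73 without control replicate 1. Macrophage markers also had positive changes, at 12 of 12 tested, among them Ccr2, which passed the filter only through the G2-EC-KO arrays. The summed signals of these markers overlapped (11.1 and 15.9 in control, 16.6 and 14.6 in G2-EC-KO). The lower control array was replicate 1 for that sum and replicate 2 for Sema4a. The part of macrophages in this value was not tested.

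The class 6 semaphorins, membrane proteins that act as ligands of A plexins, had 4 negative values of 4, or 3 of 4 with normexp. Sema6a read 0.78 and 0.94 in control and 0.63 and 0.72 in G2-EC-KO, with a log2 change of -0.18 (SE 0.12). Sema6b read 2.36 and 2.55 against 2.30 and 2.25, with -0.18 (SE 0.121). Sema6d read 2.81 and 2.82 against 2.72 and 2.47, with -0.22 (SE 0.132). Each of these G2-EC-KO arrays lay below both control arrays, and the same held for Sema6c, at -0.14 (SE 0.113), whose sign turned to 0.083 with normexp. Over all 7 tested probes of the class the change was negative and the groups did not overlap, with values from -0.63 to -0.14. On the whole array 46.4% of probes had no overlap, and 22.3% were lower without overlap (16.4% of named genes). The 7 probes read only 4 genes, the class is 1 of several subclasses looked at, and no test of the class was made. The dimmer probes gave the larger values, -0.63 (SE 0.146) for Sema6a and -0.35 (SE 0.123) for Sema6d. The adjusted p of the 4 brightest probes was 0.592 or more (limma), so none passed.

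The remaining class 3 semaphorins, which are secreted, gave values near 0 or with wide intervals. Sema3c, needed for the outflow tract of the heart, read -4.65 and -4.99 in control and -4.13 and -4.51 in G2-EC-KO, a difference of 0.50 in log2 (SE 0.199, at an adjusted p of 0.530 by limma). Its groups did not overlap, and the value was 0.31 with normexp. Sema3a, a repellent acting through neuropilin-1, had 0.08 (SE 0.131), Sema3d -0.06 (SE 0.122), and Sema3e, the ligand of plexin-D1, 0.13 (SE 0.205). The signs of these 3 genes turned when 1 array was left out. Sema4d, the ligand of plexin-B1, had 0.04 (SE 0.111), with readings of -1.61 and -1.50 in control and -1.50 and -1.53 in G2-EC-KO. Sema7a, the lipid-anchored ligand of plexin-C1, read 5.83 and 5.96 in control and 5.87 and 5.50 in G2-EC-KO, a log2 change of -0.21 (SE 0.166), with overlapping groups. Sema3b, Sema4f, Sema4g, Sema5a and Sema5b lay between -0.18 and -0.03.

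Of 9 plexins, the receptors of semaphorins, 3 had positive and 6 negative values. Plxnc1, the receptor of Sema7a, had the smallest p of the members. Its brightest probe A_52_P507498 read -1.95 and -1.92 in control and -1.31 and -1.43 in G2-EC-KO, a log2 change of 0.57 (SE 0.112, interval 0.27 to 0.86) or 1.48-fold (limma, adjusted p = 0.387). The 2 G2-EC-KO arrays lay together and well above the control arrays, and the value kept between 0.51 and 0.62 when 1 array was left out. Its second probe A_52_P299832 was not well above background in control, at -5.68 and -5.93, but was in G2-EC-KO, at -3.10 and -5.41. It passed the filter only through the G2-EC-KO arrays, so it adds no support to the brightest probe, and most of its excess lay on replicate 1. Plexin-C1 is also made by monocytes and macrophages, whose markers had positive changes at 12 of 12 tested. Among them Ccr2 passed the filter only through the G2-EC-KO arrays. The summed signals of these markers overlapped between the groups, at 11.1 and 15.9 in control and 16.6 and 14.6 in G2-EC-KO. The part of these cells in the Plxnc1 value was not tested.

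The B plexins, receptors of class 4 semaphorins, all had negative values, at 5 of 5 tested probes. Plxnb1 read -1.29 and -1.59 in control and -1.69 and -2.19 in G2-EC-KO, and the groups in limma differed by -0.50 on the log2 scale (SE 0.219, adjusted p of 0.544). Plxnb2, the receptor of Sema4c, read 1.24 and 1.26 in control and 1.13 and 0.99 in G2-EC-KO, with -0.19 (SE 0.114). Its dimmer probe read -4.89 and -5.07 in control and -5.54 and -5.51 in G2-EC-KO, with -0.55 (SE 0.12, limma adjusted p = 0.387). These readings are near the level of Robo2, described below as close to the background. Plxnb3 had -0.05 (SE 0.279), and its sign turned when control replicate 1 or G2-EC-KO replicate 2 was left out. Plxnb1 and Plxnb2 therefore carried the direction of this class, and they had no overlap between groups at the brightest probe. The dimmer Plxnb1 probe had a smaller change of -0.19 (SE 0.199), and its groups overlapped. Among named genes 16.4% were lower without overlap, and no test of the class was made.

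Plxnd1, the endothelial receptor of Sema3e that limits sprouting, read 3.19 and 3.24 in control and 3.20 and 3.46 in G2-EC-KO, a difference of 0.11 in log2 (SE 0.137, at an adjusted p of 0.762 by limma). Its groups overlapped. Of the A plexins, which pair with neuropilins, Plxna1 had -0.13 (SE 0.135) and Plxna2 -0.13 (SE 0.153), while Plxna3 had 0.05 (SE 0.117) and Plxna4 -0.08 (SE 0.215). The dimmer Plxna1 probe gave -0.34 (SE 0.107), and the 3 Plxna2 probes differed in sign, from -0.13 to 0.20.

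**Figure D2:**
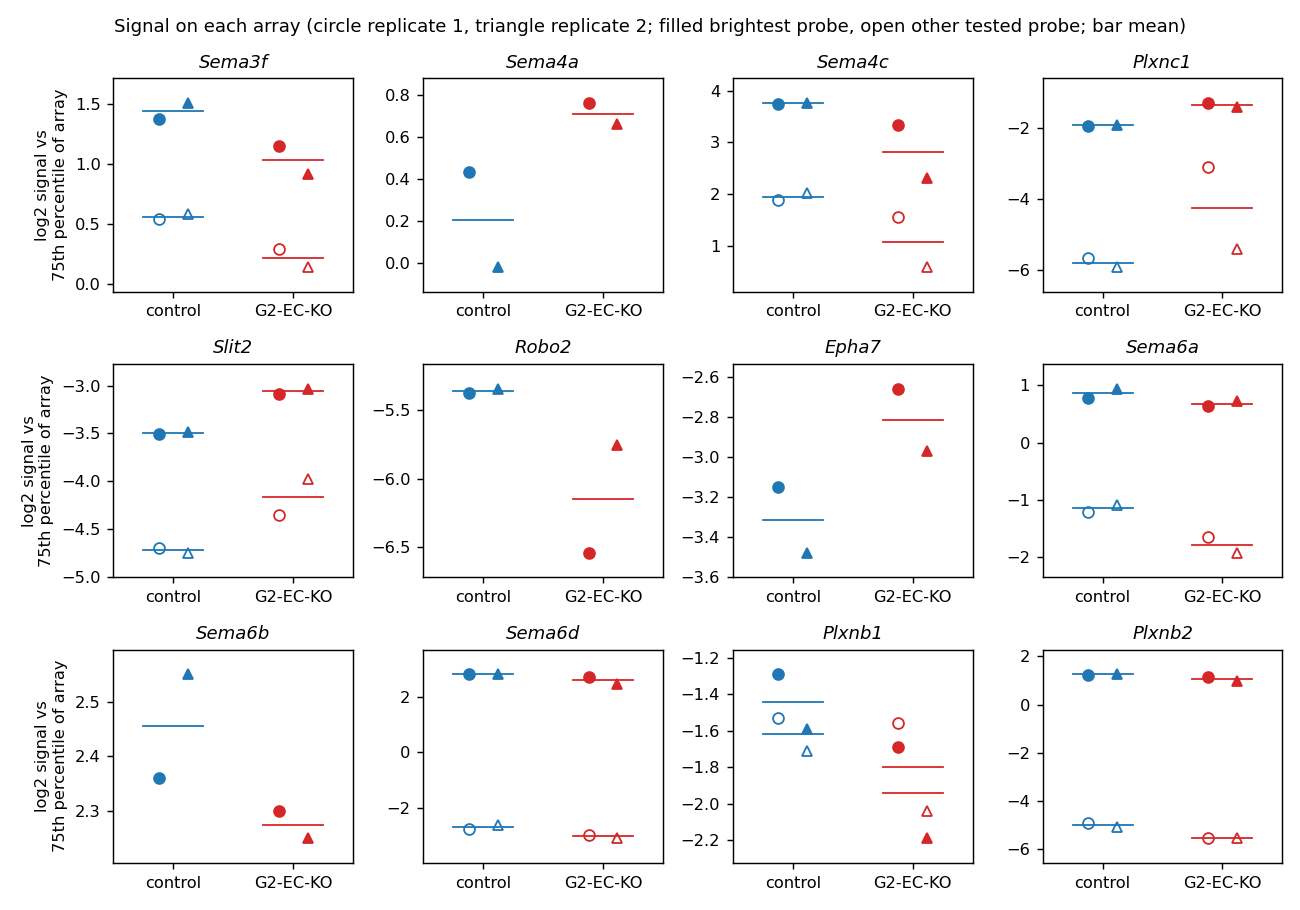
Signal of 12 guidance genes on each array, in log2 units relative to the 75th percentile of the array (vertical axes differ between panels). Circles are replicate 1, triangles replicate 2, filled symbols the brightest probe, open symbols other tested probes and bars the mean of 2 arrays. Plxnc1 and Slit2 have tight groups at the brightest probe, while for Sema4c the G2-EC-KO replicate 2 array stands below the others.

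Slit2, a large secreted ligand of Robo1 and Robo2, had both probes higher in G2-EC-KO. Probe A_51_P496569 read -3.51 and -3.48 in control and -3.09 and -3.03 in G2-EC-KO, a log2 change of 0.43 (SE 0.106, interval 0.15 to 0.72) or 1.35-fold (limma, adjusted p = 0.413). The second probe read -4.70 and -4.75 in control and -4.35 and -3.98 in G2-EC-KO, with 0.56 (SE 0.16). Its upstream window held no GATA match. Both probes separated the groups, and leaving out 1 array kept the brightest probe between 0.40 and 0.46. The other Slits gave values near 0, at 0.02 (SE 0.108) for Slit3 and -0.07 (SE 0.113) for Slit1. Fibroblast markers, 9 of 10 of them higher in G2-EC-KO, lay in the direction of Slit2. Their summed signals were 87.6 and 113 in control and 116 and 117 in G2-EC-KO. Cardiomyocyte, macrophage and platelet lists had positive changes too. Fewer markers were higher among pericyte and smooth muscle (2 of 10), lymphatic (2 of 6) and lymphocyte markers (2 of 9). The part of any of these cells in the Slit2 value was not tested.

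The Robo receptors had no common direction. Robo4, the endothelial member, read 6.02 and 6.06 in control and 6.09 and 6.25 in G2-EC-KO, and the groups in limma differed by 0.13 on the log2 scale (SE 0.118, adjusted p of 0.676). Robo1 had 0.13 (SE 0.157) with overlapping groups. Robo2 lay close to the background: it read -5.37 and -5.34 in control, both well above background, and -6.54 and -5.75 in G2-EC-KO, where 1 array was. Its log2 change was -0.79 (SE 0.279; limma, adjusted p = 0.512), and with normexp it was -0.13. Robo3, better known from commissural neurons, had -0.34 (SE 0.133) and 0.0075 with normexp.

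Netrin-1, the attractant and repellent encoded by Ntn1, gave opposite signs at its 2 probes, 0.20 (SE 0.14) and -0.25 (SE 0.203). Ntn4, a basement membrane netrin, read -2.53 and -2.67 in control and -2.24 and -3.14 in G2-EC-KO, so that the G2-EC-KO arrays lay on both sides of the control arrays, with a log2 change of -0.09 (SE 0.317). Ntn3 had -0.44 (SE 0.247; limma, adjusted p = 0.577). Unc5b, the endothelial netrin receptor that also binds Robo4, read 2.38 and 2.74 in control and 2.55 and 2.43 in G2-EC-KO, with -0.07 (SE 0.163) and overlapping groups. Unc5a had 0.14 (SE 0.131), and Unc50, a member by its letters alone, 0.22 (SE 0.154).

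Of 9 tested Eph receptors, 5 had positive and 4 negative values. Epha7, a receptor of ephrin-A ligands, read -3.15 and -3.48 in control and -2.66 and -2.97 in G2-EC-KO, a log2 change of 0.50 (SE 0.18, interval 0.02 to 0.98; limma, adjusted p = 0.512). The groups did not overlap, and the value was 0.35 with normexp. Epha2, a receptor of ephrin-A1 made by endothelium, read 3.83 and 4.03 in control and 3.80 and 3.58 in G2-EC-KO, with -0.24 (SE 0.144; limma, adjusted p = 0.586). Epha4 had -0.07 (SE 0.112) and Epha1 -0.07 (SE 0.174). Of the EphB receptors, Ephb1, Ephb2, Ephb4 and Ephb6 had positive values, the highest 0.28 (SE 0.169) for Ephb2, and Ephb3 had -0.18 (SE 0.20). None of the 5 passed, and that of Ephb4 turned negative without control replicate 1 or G2-EC-KO replicate 2.

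The ephrins had log2 changes from -0.17 to 0.25 in 6 tested genes. Efnb2, the arterial ephrin, read 4.03 and 4.17 in control and 3.99 and 4.15 in G2-EC-KO at its brightest probe, a log2 change of -0.03 (SE 0.126, interval -0.36 to 0.30; limma, adjusted p = 0.929). Its dimmer probe read 0.06 and 0.27 in control and -0.12 and -0.19 in G2-EC-KO, with -0.32 (SE 0.126), so the probes differed by 0.28. Ephb4, its venous partner, read 1.18 and 1.43 in control and 1.25 and 1.54 in G2-EC-KO, with 0.09 (SE 0.163, interval -0.34 to 0.52). Neither side of the artery and vein pair differed beyond the spread of the arrays at the brightest probe. Efnb1 had 0.02 (SE 0.191), Efna1 -0.01 (SE 0.137), Efna5 0.03 (SE 0.155), Efna4 -0.17 (SE 0.129) and Efnb3 0.25 (SE 0.238).

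Probes of the same gene mostly shared a sign. Of 19 genes with more than 1 tested probe, 16 had the same sign at all of them, and Ntn1, Plxna2 and Sema5b did not. Taking the brightest 2 probes alone, the sign was shared at 17 of 19 guidance genes, 89.5%, against 69.2% of 5090 such genes on the array. Over probes well above background on all 4 arrays, a choice made after seeing the data that leaves out the second Plxnc1 probe, it was shared at 15 of 17 guidance genes, 88.2%, against 69.2% of 4881. Probes of a gene read the same RNA, so they do not replicate the comparison between samples.

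**Figure D3:**
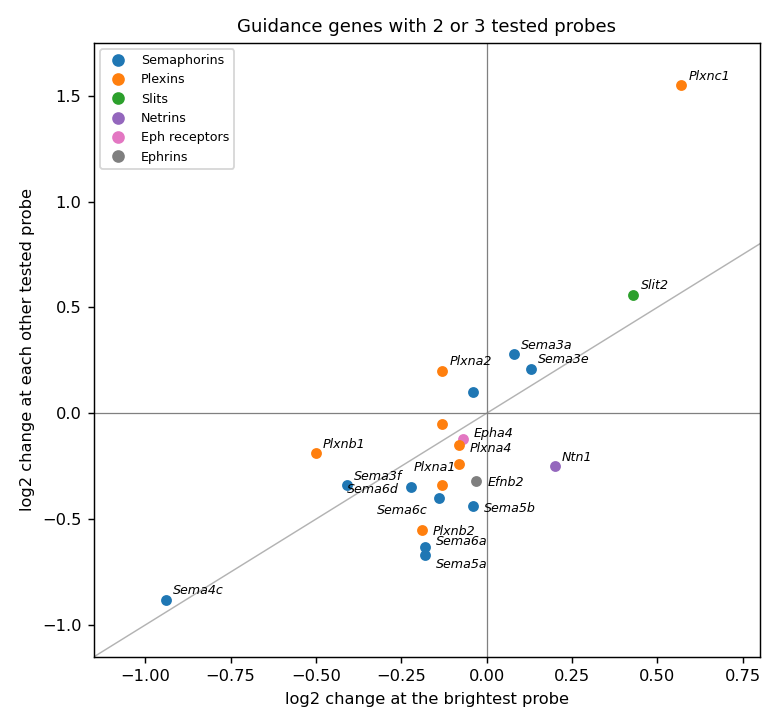
Log2 change (G2-EC-KO minus control) at the brightest probe (horizontal axis) against each other tested probe of the same gene (vertical axis), for the 19 guidance genes with several tested probes. The grey diagonal marks equal values. Sema4c, Sema3f and Slit2 lie near it, Plxnc1 lies above it with a probe that passed only through the G2-EC-KO arrays, and Ntn1, Plxna2 and Sema5b have probes on both sides of 0.

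The partners of the guidance receptors were read from lists of co-receptors and effectors, of which 95 genes were tested. None passed the adjusted threshold, and 7 had an unadjusted p under 0.05, 7.37%, with 5 higher and 2 lower. That share lies below the 9.61% of all probes and the 8.20% of named genes, so the partners are given as values only. The neuropilins gave opposite signs. Nrp2, the receptor of Sema3f, read 5.23 and 5.26 in control and 5.53 and 5.72 in G2-EC-KO, a difference of 0.38 in log2 (SE 0.122, at an adjusted p of 0.49 by limma), and Nrp1 read 2.82 and 3.03 against 2.73 and 2.75, with -0.18 (SE 0.125). Sema3f and Nrp2 thus read in opposite directions, each without overlap between the groups. Of the netrin receptors, Neo1 had -0.12 (SE 0.147) and Dcc was not well above background on any array.

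Further partners with an unadjusted p under 0.05 included Cd72, Crmp1, Srgap3, Mical3 and Pak3. Cd72, a Sema4d receptor of B cells, read -3.39 and -3.53 in control and -2.97 and -2.97 in G2-EC-KO, with a difference of 0.48 in log2 (SE 0.114, at an adjusted p of 0.40 by limma). Crmp1, a collapsin response mediator downstream of Sema3a, had 0.59 (SE 0.166), and Srgap3, a GTPase-activating protein that binds Robo, had 0.41 (SE 0.13). On the lower side Mical3, of a family of actin-oxidising enzymes that bind plexins, had -0.59 (SE 0.185), and Pak3, a kinase activated by Rac and Cdc42, had -0.52 (SE 0.177). With normexp these were -0.31 and -0.068. Groups did not overlap at 40 of the 95 genes, 42.1%, which is below the 47.2% of named genes.

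**Figure D4:**
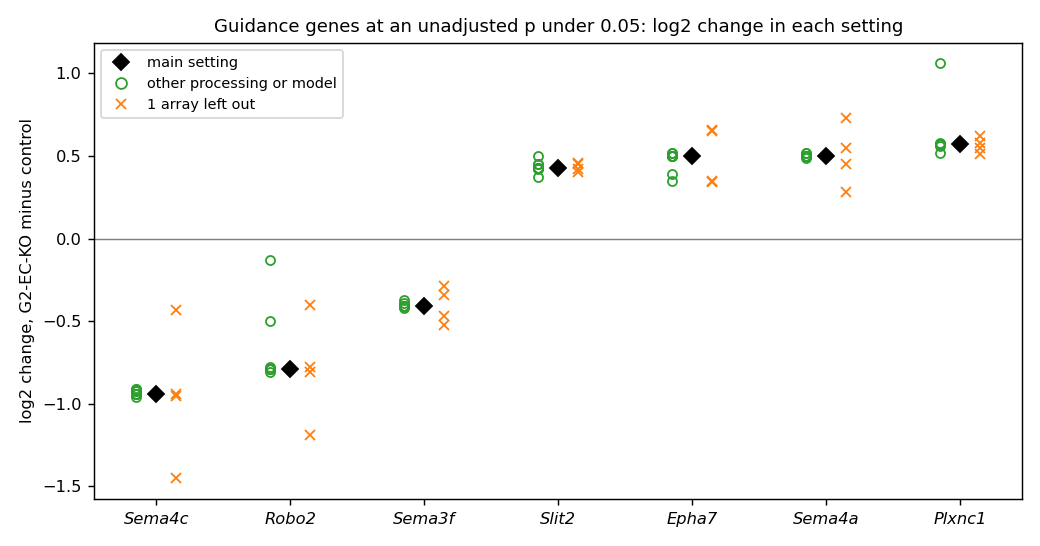
Log2 change (G2-EC-KO minus control, vertical axis) of the 7 guidance genes with an unadjusted p under 0.05, under the main setting (diamonds), other processing or models (circles) and with 1 array left out (crosses). Every value keeps its side of 0, Slit2 and Sema3f vary least, and Sema4c and Robo2 vary most, from -1.45 to -0.43 and from -1.19 to -0.13.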

How the data were processed

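Gene expression was measured on 4 single-colour Agilent arrays of design 014868. Spot intensity values, per the file headers, were extracted with Feature Extraction 10.7.3.1 (the submitters' processing notes name version 10.5), with background subtraction and spatial detrending done per array and no scaling across arrays. A deposited value table of linear intensity, equal to the local-background-subtracted median signal with 16 added, served as an alternative.

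After removal of outlier and control spots, processed signals were log2-transformed, set relative to the 75th percentile of their array and averaged over the spots of a probe. Symbols came from RefSeq (GRCm38.p6) by accession, for 26933 of 41174 probes. Array coordinates were not used, since the builds differ. Probes well above background on at least 2 arrays, 26900 of them, were fitted with limma 3.58.1 in R 4.3.3 on group alone, two-sided, with Benjamini-Hochberg adjustment over all probes tested. An exact permutation test of 2 against 2 cannot go below p = 0.333. The script was tested on simulated data.

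Median processed signals were 150.5 and 148.3 in control and 132.7 and 122.7 in G2-EC-KO, with 0 saturated spots, and the number of arrays limits the precision. The arrays lie on 1 slide with the groups at different positions, so position and group cannot be told apart. The members and lists were chosen with earlier results of these data known. Named were 29 guidance genes of endothelium (Sema3g had no matched probe), every other member at an unadjusted p under 0.05, members dark in 1 group, members whose probes differ in sign, and up to 4 partners per direction by smallest p. The correlation of same-numbered deviations was 0.0441, and replicate numbers were not used as pairs in the main fit. That value cannot exclude that same-numbered samples were prepared together. The normexp alternative used the median spot signal, in place of the planned mean signal, which is not analysed here. The other alternatives were quantile and median scaling, other filters, an intensity trend, a replicate block, leaving out each array and averaging the probes of a gene.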

Additional observations from a re-analysis of the deposited data

Results flagged for a closer look

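On G2-EC-KO replicate 1 alone, 4 member probes too dim for the comparison were called well above background. They were picked because they also read above both control arrays there. The levels were -5.22 for the second Epha7 probe (control -7.01 and -6.87), -5.21 for Unc5c, a netrin receptor (-5.61 and -6.43), -4.76 for Unc5cl (-7.64 and -7.90) and -4.97 for the second Sema4d probe (-5.86 and -5.91). G2-EC-KO replicate 2 was not called at any of these probes, but it read above both control arrays for Epha7 (-5.92) and Unc5c (-5.51). Efna2 was called on 1 control array alone, and Sema4b was called on 1 G2-EC-KO array without reading above both control arrays. The share of such probes over the whole array was not counted, and no test was made.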

How the results depend on the processing

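No guidance gene passed the adjusted threshold under any of the 13 alternatives. The count at an unadjusted p under 0.05 was 3 without a filter on dim probes and ranged from 1 to 11 when 1 array was left out. Without the filter 66 members were tested, and the share of all probes at that threshold was 6.32%, against 9.61% in the main fit. With the replicate block the count was 8, where the share of all probes was 10%. The counts are therefore no result about the family. The block, which gave a median of -0.055, changed no call past the adjusted threshold. The median log2 change of the members was -0.00033 with normexp and -0.037 with median centring, and leaving out 1 array gave -0.051 to -0.0088. The sign held in every alternative at 25 members and turned in at least 1 at 30. With normexp it turned for Robo3 (0.0075), Slit1 (0.021), Efnb1 (-0.00033), Sema4f (0.066), Sema4g (0.051) and Sema6c (0.083), with the deposited value table for Plxna3 (-0.19) and Sema4f (0.033), with median centring for Efna1 (0.0085) and with averaged probes for Ntn1 (-0.028) and Plxna2 (0.0081). The cause was not tested. Log2 changes that turned when 1 array was left out ranged as follows: Epha1 -0.25 to 0.11, Ephb3 -0.39 to 0.031, Ephb4 -0.051 to 0.23, Robo1 -0.03 to 0.29, Slit3 -0.015 to 0.064, Unc5b -0.25 to 0.11, Efna1 -0.14 to 0.13, Efna5 -0.15 to 0.20, Efnb1 -0.17 to 0.21, Efnb2 -0.11 to 0.049, Efnb3 -0.059 to 0.57, Ntn4 -0.54 to 0.36, Plxna2 -0.27 to 0.011, Plxna3 -0.017 to 0.11, Plxna4 -0.33 to 0.18, Plxnb3 -0.38 to 0.27, Plxnd1 -0.021 to 0.24, Sema3a -0.024 to 0.19, Sema3b -0.30 to 0.18, Sema3d -0.14 to 0.023, Sema3e -0.086 to 0.35, Sema4d -0.019 to 0.096, Sema4f -0.36 to 0.31, Sema4g -0.17 to 0.017, Sema5a -0.38 to 0.016, Sema5b -0.09 to 0.0039 and Neo1 -0.28 to 0.028. With 2 arrays per group, dim probes such as those of Robo2, Robo3 and Pak3 are limited by their signal over background.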

Other observations

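Dimmer probes of a guidance gene often gave the larger difference. The second-brightest tested probe had the larger absolute log2 change at 16 of 19 guidance genes, 84.2%, against 56.6% of all genes with several tested probes. Over probes well above background on all 4 arrays it was 14 of 17, 82.4%, against 56.1%. Sema5a is an example chosen after its values were seen: its brightest probe had a log2 change of -0.18 (SE 0.168) and its dimmer probe A_52_P465022 read -3.95 and -4.23 in control and -4.53 and -4.99 in G2-EC-KO, with -0.67 (SE 0.206; limma, adjusted p = 0.472). The difference in share was not tested.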
